A study of Mus musculus with 12 samples.

Results

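Corneal keratectomy was compared with no keratectomy in mouse trigeminal ganglia, with and without electrical stimulation of the eye, over all 12 of the 12 bulk RNA-seq libraries of the study. The libraries on one side were those of the 2 groups with keratectomy and on the other those of the 2 groups without it, 6 against 6, and the injury effect was the mean of its values in unstimulated and in stimulated mice. No expression value was used to choose the libraries. All 4 groups came from female C57BL/6J mice, an inbred laboratory strain, aged 8 weeks, with 3 libraries each. Injured mice had the epithelium and upper stroma removed over a central 1.5 mm of 1 cornea, and their ganglia were taken 2 weeks later. Injured, stimulated mice had the same wound and a daily 4 min session of current through the skin over the orbit (300 µA, 20 Hz) for 14 days. Stimulated, uninjured mice had the current and no wound, and controls had neither. The series title speaks of diabetic neuropathy, and the labels of these 12 libraries give no diabetic treatment to any group. The design text also describes sham electrodes without current, and the labels do not say which mice had them. Whether a library held ganglia of 1 mouse or of several, and from the wounded side or both, is likewise not given by the labels.

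The trigeminal ganglion holds the cell bodies of the sensory neurons whose axons form the corneal nerves, so that removing the corneal surface cuts the endings of some of its cells. Each neuron body is wrapped in satellite glia, and the axons within the ganglion are ensheathed by Schwann cells, with oligodendrocytes, astrocytes and meninges where the root meets the brain stem. After axons are cut, sensory neurons are known to switch on a regeneration programme, while a separate set of immediate early genes is transcribed within minutes of stimulation of many cell types and decays within hours. In whole-tissue RNA, a change in the number of cells of a type and a change in RNA per cell cannot be told apart.

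The deposited values were read counts per gene interval, 7952798 to 10751547 per library. The intervals are those of the newer mouse assembly, GRCm39, while the counts lay where the exons of the older one, GRCm38, are. Intervals over GRCm38 exons were 36.02% of all nuclear intervals and held 98.63 to 99.3% of the nuclear counts, so the deposited gene identifiers were not used as names. Genes are therefore named here by the GRCm38 exons that lie under an interval, where these belong to 1 gene and cover at least 100 bases. This left 4771 named genes among 13053 intervals with enough reads to test. Of 25 markers of ganglion neurons and glia, 10 could be measured in this way, and each was above 1 CPM in every library (counts per 1000000 reads, scaled by the TMM method): Uchl1, Thy1, Avil, Nefm, Scn10a, Tac1 and Trpv1 of sensory neurons, Prx of myelinating Schwann cells, and Kcnj10 and Cdh19 of glia. Injured, stimulated library 2 and stimulated, uninjured library 3 stood apart from the other libraries of their groups (−32.45 against 57.39 and 20.73, and −28.44 against 13.49 and 21.45, on the first principal component). Counts for most lists are also given without these 2 libraries. All fold changes below are log2 ratios of injured over uninjured ganglia with their standard errors, and all adjusted p-values are Benjamini-Hochberg values from edgeR's quasi-likelihood test over the 13053 intervals. A gene rose or fell where its adjusted p was under 0.05.

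With injury 1651 intervals rose and 1043 fell, together 20.6% of the 13053 tested. Without the 2 libraries that stood apart, 2145 of 13612 intervals rose and 1823 fell. In that fit 2717 rose and 2562 fell in unstimulated mice, and 606 rose and 543 fell in stimulated mice. List counts given below without these 2 libraries stand beside those numbers. The balance of higher and lower calls turned in 6 alternatives. Without stimulated, uninjured library 1, 2 or 3, the higher and lower calls were 855 and 1061, 1195 and 1275, and 209 and 313. They were 256 and 394 without injured, stimulated library 3, 87 and 186 in an additive model, and 6 and 18 with injury alone in the model. Among named genes, 602 of 4771 rose (12.6%) and 424 fell (8.89%). The effect was uneven between the strata. In unstimulated mice 31.0% of intervals passed the test, and 19.5% of named genes rose and 12.6% fell. In stimulated mice 4.07% of intervals passed, and 2.98% of named genes rose and 1.95% fell. Across named genes the log2 fold changes of the 2 strata had a Spearman correlation of 0.08, as a description over 4771 genes measured in libraries that the strata do not share. Injury and stimulation interacted at 19.2% of intervals and at 20.4% of named genes. Of the 2507 intervals with an interaction under TMM scaling, 35.7% had a higher log2 injury effect with stimulation than without it. Of the 2252 under DESeq2's size factors the share was 47.9%, with 2069 intervals called under both. Of the 1026 named genes that passed for the main effect, 867 had the same sign in both strata, 159 had opposite signs, and 297 also had an interaction. In 161 named genes (3.37%) the injured and uninjured libraries did not overlap in the same direction inside both strata, against 305 that did not overlap in opposite directions. In 46 of the 4771 the 6 injured libraries all lay on the same side of the 6 uninjured ones. The 12 highest and 12 lowest genes named below were chosen in part for lack of overlap inside both strata, so for them it is no separate result.

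**Figure D1:**
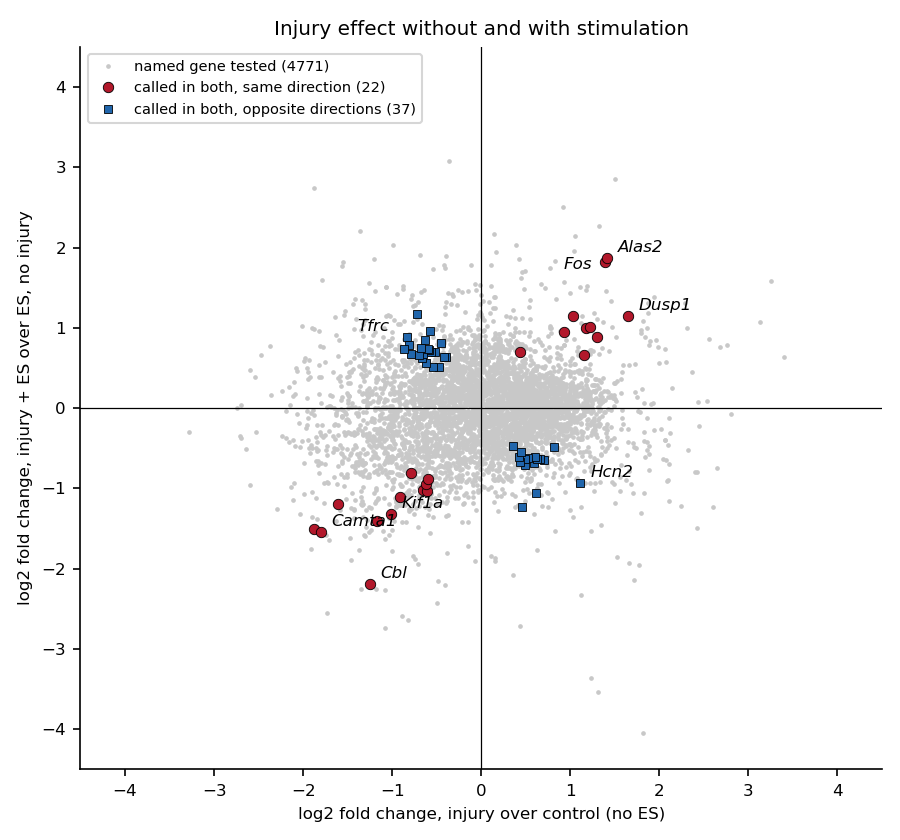
Log2 fold change of injured over uninjured ganglia for each named gene, without stimulation on the x axis and with it on the y axis. The 22 genes called in both strata in the same direction are red circles, the 37 called in opposite directions are blue squares, and 2 genes lie beyond the axes.

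Named genes that passed in both strata in the same direction numbered 22, of which 10 rose and 12 fell. Another 37 passed in both with opposite directions. Immediate early genes made up 6 of the 10 that rose. All 22 kept their main-effect call when any 1 of the 12 libraries was left out, and in the stimulated stratum Fos was the only one of them to do so. In the unstimulated stratum Colec12 passed in 2 of these 12 fits, Cbl and Nacc2 in 7, Grin1 in 8 and Btg2 in 10. Fos, Dusp1, Junb, Ier2, Klf4, Alas2, Camta1, Dmxl2 and Kif1a passed there in all 12. Without the 2 libraries that stood apart, 7 of the 10 and 11 of the 12 passed in both strata, among 122 named genes that did so in the same direction and 111 in opposite directions. When the stimulated comparison was fitted on its own 6 libraries, no interval passed after adjustment, with 1730 at an unadjusted p under 0.05. All 22 genes had an unadjusted p under 0.05 in that fit. The 22 were chosen for passing between these same libraries. Neither this fit nor those that left out libraries are therefore separate support for them.

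Immediate early genes were higher after injury with and without stimulation. Of the 43 genes listed, 14 could be named by position and 12 had enough reads to test. Of these 12, 7 rose for the main effect and none fell, with a median of 1.09 against 0.03 over all named genes. In unstimulated mice 7 rose, and in stimulated mice 7 rose, 6 of them in both. These genes encode transcription factors and feedback regulators of growth factor and calcium signals. The summed level of the 14 measurable members was 406 to 503 CPM in injured ganglia against 260 to 291 CPM in controls. In stimulated mice it was 434 to 559 CPM in injured against 321 to 362 CPM in uninjured ganglia, so that neither pair of groups overlapped.

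Fos encodes a subunit of the AP-1 transcription factor and lies at chr12:85473890-85477273 (GRCm38). Fos had 17.3, 21.7 and 13.6 CPM in injured ganglia, against 6.54, 5.92 and 7.61 CPM in controls. With stimulation, Fos had 28.9, 35.2 and 18.8 CPM in injured ganglia, against 5.33, 9.15 and 8.92 CPM in uninjured ganglia. Its 6 injured libraries were all above its 6 uninjured libraries. The main effect was 1.60 ± 0.19 (adjusted p = 0.000965), or 3.04-fold, with 1.39 in unstimulated and 1.82 in stimulated mice. The reads came from 637 exonic bases of Fos, 572 of them coding.

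Dusp1 encodes a phosphatase that switches off MAP kinases and lies at chr17:26505590-26562128. Dusp1 had 62.7, 66.6 and 44.0 CPM in injured ganglia, against 11.9, 19.5 and 24.0 CPM in controls. With stimulation, Dusp1 had 58.7, 46.5 and 44.7 CPM in injured ganglia, against 26.6, 22.7 and 18.8 CPM in uninjured ganglia. No injured library was as low as any uninjured one. The main effect was 1.40 ± 0.16 (adjusted p = 0.000965), measured over 327 exonic bases outside the coding sequence.

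Junb, at chr8:84974484-84978718, encodes another AP-1 subunit. Junb had 93.7, 118 and 76.1 CPM in injured ganglia, against 44.5, 41.2 and 31.0 CPM in controls. With stimulation, Junb had 166, 122 and 101 CPM in injured ganglia, against 72.4, 71.1 and 67.6 CPM in uninjured ganglia. The groups did not overlap inside either stratum, and stimulated ganglia without a wound lay above controls. Junb rose by 1.09 ± 0.14 (adjusted p = 0.00124). A second, 104-base interval over Junb had a main effect of −0.07 (adjusted p = 0.922), in contrast to the 1439 bases used here.

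Ier2, at chr8:84661331-84662852, encodes a nuclear protein induced by growth factors. Ier2 had 22.5, 25.9 and 17.5 CPM in injured ganglia, against 10.3, 10.7 and 7.38 CPM in controls. With stimulation, Ier2 had 38.3, 32.7 and 31.5 CPM in injured ganglia, against 14.5, 22.8 and 13.6 CPM in uninjured ganglia. Ier2 rose by 1.11 ± 0.16 (adjusted p = 0.00317), without overlap inside either stratum.

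Klf4, a zinc finger transcription factor gene at chr4:55527143-55532466, was counted over 3049 bases in its own interval. Klf4 had 59.5, 50.8 and 44.7 CPM in injured ganglia, against 24.4, 27.0 and 17.1 CPM in controls. With stimulation, Klf4 had 49.9, 64.6 and 31.5 CPM in injured ganglia, against 20.6, 26.8 and 25.7 CPM in uninjured ganglia. All injured libraries exceeded all uninjured ones, with a main effect of 1.09 ± 0.16 (adjusted p = 0.00317).

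Btg2, at chr1:134075170-134079120, encodes an antiproliferative cofactor of mRNA decay. Btg2 had 16.2, 17.8 and 10.4 CPM in injured ganglia, against 5.88, 7.62 and 8.32 CPM in controls. With stimulation, Btg2 had 23.2, 30.8 and 13.7 CPM in injured ganglia, against 9.86, 11.4 and 9.39 CPM in uninjured ganglia. Btg2 rose by 1.09 ± 0.20 (adjusted p = 0.00691). Injured library 3 of each stratum was the lowest of its group for Fos and Btg2, and still lay above every uninjured library of its stratum.

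Nr4a1, which encodes a nuclear receptor, rose for the main effect (1.71 ± 0.30, adjusted p = 0.00594) and in stimulated mice (2.5 ± 0.43, adjusted p = 0.00915). Nr4a1 had 8.54, 8.71 and 3.75 CPM in injured ganglia, against 2.77, 3.64 and 4.80 CPM in controls. With stimulation, Nr4a1 had 8.75, 22.9 and 8.51 CPM in injured ganglia, against 2.55, 2.76 and 1.83 CPM in uninjured ganglia. In unstimulated mice its groups overlapped (0.91 ± 0.42, adjusted p = 0.107). Sik1, the gene of a kinase induced by cyclic AMP, was not on the list and rose in both strata. Sik1 had 13.3, 18.1 and 15.8 CPM in injured ganglia, against 10.9, 7.28 and 6.68 CPM in controls. With stimulation, Sik1 had 19.5, 20.9 and 19.3 CPM in injured ganglia, against 9.28, 11.1 and 10.6 CPM in uninjured ganglia. All 6 injured libraries exceeded all 6 uninjured ones, and Sik1 rose by 0.93 ± 0.16 (adjusted p = 0.00443).

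Of the other 5 immediate early genes tested, none passed for the main effect. Arc, which encodes a synaptic protein, had 1.56 without stimulation (adjusted p = 0.0029) and −0.71 with it (adjusted p = 0.224), with an interaction of −2.28 (adjusted p = 0.00452). Mcl1, Nr4a3, Ier5 and Klf10 had main effects between −0.17 and 0.22. All 7 members that rose also passed after the trends of GC content, length and position along the transcript had been removed. Without the 2 libraries that stood apart, 7 of 12 passed for the main effect and 6 in stimulated mice. Injured, stimulated library 2, which lay nearer to controls than to its own group on the first component, had the highest Fos, Klf4, Nr4a1 and Btg2 of the 12 libraries.

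**Figure D2:**
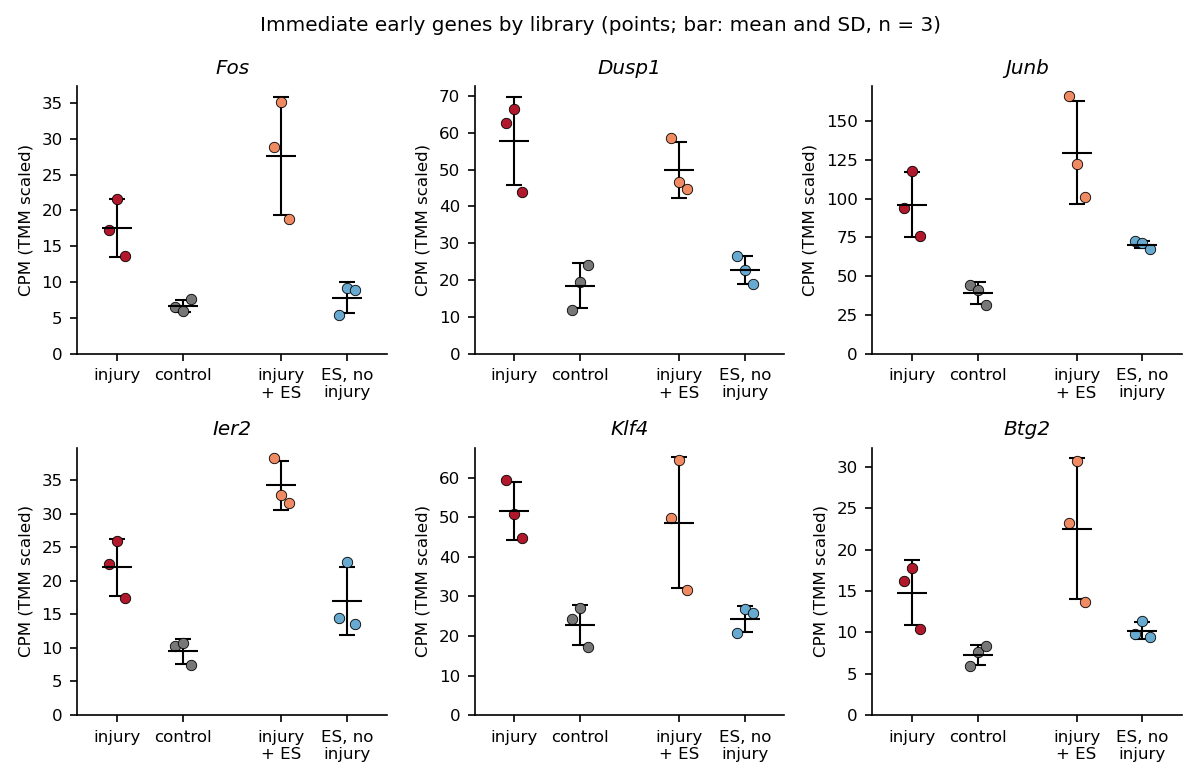
CPM of 6 immediate early genes by library, with points for the 3 libraries of each group and bars for the mean and SD. In each gene the injured groups lie above the uninjured group to their right, without overlap inside either stratum.

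The promoters of the 5 genes that rose in both strata and are in RefSeq's table of GRCm38.p6 are shown because these genes moved together. Each line holds the 250 bases before the transcription start, 5′ to 3′ on the gene's strand, with every TGACG or its reverse complement CGTCA in capitals. TGACG is the core of the element bound by the cyclic AMP responsive factor CREB, and where both directions overlap they spell TGACGTCA.

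Fos (chr12:85473640-85473889, + strand): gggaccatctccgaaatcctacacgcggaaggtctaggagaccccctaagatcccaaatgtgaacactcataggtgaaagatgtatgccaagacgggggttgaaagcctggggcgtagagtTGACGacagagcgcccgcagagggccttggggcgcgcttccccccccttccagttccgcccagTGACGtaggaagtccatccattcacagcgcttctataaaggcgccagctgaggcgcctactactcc
Junb (chr8:84978749-84978998, - strand): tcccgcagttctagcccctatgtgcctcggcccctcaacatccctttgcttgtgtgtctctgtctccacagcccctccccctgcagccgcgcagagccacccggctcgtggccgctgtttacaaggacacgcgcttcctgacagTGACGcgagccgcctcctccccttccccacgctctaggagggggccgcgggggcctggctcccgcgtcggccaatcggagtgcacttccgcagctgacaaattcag
Dusp1 (chr17:26508473-26508722, - strand): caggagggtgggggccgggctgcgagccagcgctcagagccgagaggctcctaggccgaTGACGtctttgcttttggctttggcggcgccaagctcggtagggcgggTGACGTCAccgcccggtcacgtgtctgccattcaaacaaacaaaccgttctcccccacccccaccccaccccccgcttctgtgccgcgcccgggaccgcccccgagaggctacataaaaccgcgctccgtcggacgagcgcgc
Klf4 (chr4:55532476-55532725, - strand): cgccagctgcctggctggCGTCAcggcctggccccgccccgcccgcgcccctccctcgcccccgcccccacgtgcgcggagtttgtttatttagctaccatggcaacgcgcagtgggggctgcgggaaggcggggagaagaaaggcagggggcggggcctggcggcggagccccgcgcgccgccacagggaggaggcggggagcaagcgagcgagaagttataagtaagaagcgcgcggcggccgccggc
Btg2 (chr1:134079156-134079405, - strand): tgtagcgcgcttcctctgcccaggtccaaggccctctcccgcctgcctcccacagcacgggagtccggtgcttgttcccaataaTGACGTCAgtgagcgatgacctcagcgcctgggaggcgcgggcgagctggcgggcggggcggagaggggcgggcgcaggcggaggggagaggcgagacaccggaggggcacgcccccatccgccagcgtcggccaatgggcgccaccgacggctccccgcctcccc

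All 5 held at least 1 match, and Dusp1 and Btg2 held the overlapping pair. Of all 32851 promoters in the table, 17.8% held a match in the same 250 bases. A match is a description of these letters only.

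Of 3 red blood cell genes that could be named, 2 were tested and both rose for the main effect, 1 of them in both strata. Without the 2 libraries that stood apart both rose for the main effect, 1 in stimulated and none in unstimulated mice. Alas2, the first enzyme of haem synthesis in erythroid cells (at chrX:150547375-150570638), was counted over 146 coding bases. Alas2 had 64.7, 75.4 and 70.0 CPM in injured ganglia, against 37.7, 19.3 and 21.6 CPM in controls. With stimulation, Alas2 had 78.2, 62.0 and 37.2 CPM in injured ganglia, against 9.97, 26.9 and 11.9 CPM in uninjured ganglia. The main effect was 1.64 ± 0.24 (adjusted p = 0.00317), and no injured library overlapped an uninjured one inside its stratum. Slc4a1, the anion exchanger of red cells, rose as well (1.33 ± 0.29, adjusted p = 0.0112). Slc4a1 had 3.11, 7.01 and 5.55 CPM in injured ganglia, against 2.88, 2.62 and 3.28 CPM in controls. With stimulation, Slc4a1 had 9.63, 6.97 and 4.02 CPM in injured ganglia, against 1.62, 2.76 and 1.43 CPM in uninjured ganglia. The stimulated groups did not overlap and the unstimulated ones did. In unstimulated mice Slc4a1 did not pass (0.83 ± 0.40, adjusted p = 0.124). A second interval over Slc4a1 had 0.23 (adjusted p = 0.827). The 3 erythroid genes that could be measured summed to 69.1 to 83.7 CPM in injured ganglia against 22.6 to 42.0 CPM in controls. With stimulation the sum was 41.7 to 88.4 CPM in injured against 11.9 to 29.7 CPM in uninjured ganglia. The part of blood left in the tissue in other results was not tested.

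Tfpi, the inhibitor of tissue factor in coagulation, was among the other highest genes chosen for passing without overlap inside either stratum. It had a main effect of 0.90 ± 0.22 (adjusted p = 0.017) and did not pass in either stratum alone. Tfpi had 31.5, 32.0 and 22.4 CPM in injured ganglia, against 17.4, 20.0 and 12.3 CPM in controls. With stimulation, Tfpi had 12.7, 13.7 and 9.57 CPM in injured ganglia, against 2.55, 7.72 and 7.48 CPM in uninjured ganglia. Neither pair of groups overlapped. A second interval over Tfpi gave 0.87 (adjusted p = 0.0152). Cenpm, which encodes a centromere protein, rose by 1.24 ± 0.27 (adjusted p = 0.0112) at 1.11 to 5.2 CPM, and its stimulated stratum did not pass (adjusted p = 0.124). Pbx4, a homeobox gene, rose by 1.05 ± 0.27 (adjusted p = 0.0184) at 1.29 to 6.85 CPM, and lost the call without control 1, injured, stimulated 3 or stimulated, uninjured 3.

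For the main effect 8.89% of all named genes fell and 12.6% rose, and the counts of the lists below stand beside those shares. Genes of the neuronal cytoskeleton and of axonal transport were the described list with the most members that fell. Of 20 tested, 9 fell and 3 rose for the main effect, with a median of −0.28. In unstimulated mice 5 fell and 5 rose, and in stimulated mice 7 fell and none rose. Leaving out both libraries that stood apart, 9 fell and 5 rose for the main effect, and 9 fell and 2 rose in stimulated mice. This list is of long transcripts, with a median of 7648 bases against 3886 for all named genes. Its members were counted at a median of 4273 bases from the 3′ end. Of named genes of any kind counted 4000 to 6000 bases from that end, 135 of 493 fell. The channel, adhesion and nociceptor lists below have median lengths of 5853, 5671 and 2970 bases.

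Kif1a encodes a kinesin that carries synaptic vesicle precursors along axons (chr1:93015464-93101951). Kif1a had 30.8, 27.6 and 35.7 CPM in injured ganglia, against 57.4, 73.3 and 58.8 CPM in controls. With stimulation, Kif1a had 29.8, 58.5 and 27.1 CPM in injured ganglia, against 75.3, 79.8 and 133 CPM in uninjured ganglia. The injured libraries were below the uninjured ones of their stratum, and the main effect was −1.17 ± 0.19 (adjusted p = 0.00386), from 102 coding bases. Sptan1 encodes the alpha subunit of spectrin, the membrane skeleton of axons. Sptan1 had 12.2, 8.60 and 16.8 CPM in injured ganglia, against 29.4, 42.4 and 42.2 CPM in controls. With stimulation, Sptan1 had 18.0, 27.0 and 17.7 CPM in injured ganglia, against 40.0, 36.9 and 66.8 CPM in uninjured ganglia. All injured libraries lay below all uninjured ones, with a main effect of −1.40 ± 0.19 (adjusted p = 0.00193). Sptbn1, the gene of a beta spectrin, had −1.69 ± 0.26 (adjusted p = 0.00329) over 1503 bases. Sptbn1 had 7.54, 6.05 and 7.22 CPM in injured ganglia, against 22.2, 29.0 and 25.3 CPM in controls. With stimulation, Sptbn1 had 6.47, 18.4 and 4.96 CPM in injured ganglia, against 23.7, 21.7 and 39.7 CPM in uninjured ganglia. No injured library reached the lowest uninjured one. A second, 719-base interval over Sptbn1 went the other way (0.39, adjusted p = 0.0331), so that the direction for the gene depends on which bases are counted. Map1a, a microtubule-associated protein gene, fell for the main effect (−0.93 ± 0.18, adjusted p = 0.00882), as did Mapk8ip3 (−0.71), Sptbn4 (−0.81), Ank2 (−1.13), Kif1b (−0.45) and Dpysl3 (−0.44). The 3 that rose were Klc1 (0.55), a kinesin light chain gene, Stmn1 (0.55), which encodes a microtubule-destabilising protein, and Map4 (0.34).

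Ion channel genes of neurons fell in part. Of 24 sodium, calcium and ligand-gated channel genes tested, 6 fell and none rose for the main effect, with a median of −0.26, and without the 2 libraries that stood apart 1 rose and 6 fell. Grin1, the obligatory subunit of NMDA receptors, fell in both strata. Grin1 had 15.6, 13.1 and 20.5 CPM in injured ganglia, against 26.3, 22.9 and 26.0 CPM in controls. With stimulation, Grin1 had 18.8, 25.5 and 22.0 CPM in injured ganglia, against 38.4, 43.7 and 53.1 CPM in uninjured ganglia. The groups did not overlap inside either stratum, and the value was −0.82 ± 0.14 (adjusted p = 0.00443). Cacna1b, the gene of the N-type calcium channel pore, had −1.20 ± 0.27 (adjusted p = 0.0119), and Cacna1h, of a T-type channel, had −1.25 ± 0.31 (adjusted p = 0.0182). A second interval over Cacna1h gave −0.75 (adjusted p = 0.0129). Cacna1h lost its call without injured, stimulated library 3. With the trends of GC content, length and position removed, Cacna1b had −0.67 (adjusted p = 0.0869) and Cacna1h −0.92 (adjusted p = 0.0444).

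Nociceptors are the pain-sensing neurons that supply most corneal endings. Of 14 nociceptor genes tested, 2 fell and none rose for the main effect, with a median of −0.30, and without those 2 libraries 2 rose and 4 fell. The share of all named genes that fell was 8.89%, and 2 of 14 is not far above it. P2rx3, an ATP-gated channel of nociceptors, was 1 of the 2 that fell. P2rx3 had 74.2, 64.1 and 79.7 CPM in injured ganglia, against 101, 126 and 94.0 CPM in controls. With stimulation, P2rx3 had 68.6, 86.5 and 100.1 CPM in injured ganglia, against 103, 99.5 and 132 CPM in uninjured ganglia. It had a main effect of −0.48 ± 0.12 (adjusted p = 0.0184), lost without injured library 2, and its stimulated groups overlapped. Trpv1, the capsaicin receptor gene, was the other. Trpv1 had 17.0, 13.4 and 21.8 CPM in injured ganglia, against 23.9, 27.5 and 21.1 CPM in controls. With stimulation, Trpv1 had 14.7, 19.9 and 20.6 CPM in injured ganglia, against 27.7, 20.8 and 34.1 CPM in uninjured ganglia. The stimulated groups did not overlap and the unstimulated ones did. Its main effect was −0.53 ± 0.16 (adjusted p = 0.0291), and it passed in 5 of 12 fits that each left out 1 library. Scn10a, the sodium channel Nav1.8, had −0.22 (adjusted p = 0.178), and Tac1, the substance P precursor, had 0.26 (adjusted p = 0.143).

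Neuronal adhesion genes fell in 6 of 21 cases and rose in none for the main effect, with a median of −0.20, and without those 2 libraries 1 rose and 7 fell. Among them Cntnap4 had −1.35 ± 0.28 (adjusted p = 0.0103), Chl1 had −0.49 ± 0.10 (adjusted p = 0.0104) and Cntn1 had −1.0 ± 0.25 (adjusted p = 0.0191), all members of families that link neurons to each other or to glia. With the trends of GC content, length and position removed, Chl1 had −0.05 (adjusted p = 0.833). Cntnap4 and Cntn1 still passed there (adjusted p = 0.0201 and 0.0372). The other 3 were Nlgn2 (−0.36), Negr1 (−1.10) and Cntnap2 (−0.86). In unstimulated mice 9 fell and 1 rose, and in stimulated mice 1 fell and 2 rose, with an interaction at 11 of the 21. Cntn1 lost its call without stimulated, uninjured library 3. Robo2, the receptor for Slit guidance cues, fell among 21 axon guidance genes (−1.53 ± 0.28, adjusted p = 0.00691), of which 2 rose and none of the others fell, against 1 that rose and 3 that fell without those 2 libraries. Robo2 had 1.33, 1.91 and 1.25 CPM in injured ganglia, against 7.65, 5.01 and 5.50 CPM in controls. With stimulation, Robo2 had 2.28, 4.61 and 3.43 CPM in injured ganglia, against 5.33, 4.96 and 11.4 CPM in uninjured ganglia. All 6 injured libraries lay below all 6 uninjured ones.

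The lowest main effects were also ranked among genes chosen for passing without overlap inside either stratum, with a mean of at least 1 CPM. Those that follow were not on these lists. Cacnb2, on the channel list and outside that ranking, had −1.91 (adjusted p = 0.0237) at a mean of 1.27 CPM. Cbl, a ubiquitin ligase gene of receptor signalling, fell in both strata. Cbl had 1.66, 0.744 and 3.05 CPM in injured ganglia, against 4.1, 4.66 and 3.98 CPM in controls. With stimulation, Cbl had 1.52, 1.07 and 1.54 CPM in injured ganglia, against 5.33, 6.29 and 7.32 CPM in uninjured ganglia. Cbl changed by −1.72 ± 0.30 (adjusted p = 0.00577), with all injured libraries below all uninjured ones, and a second interval over Cbl gave −1.51 (adjusted p = 0.0248). Camta1, which encodes a calmodulin-binding transcription activator of the nervous system, also fell in both. Camta1 had 6.77, 5.74 and 8.47 CPM in injured ganglia, against 25.5, 28.6 and 18.9 CPM in controls. With stimulation, Camta1 had 9.13, 18.9 and 9.92 CPM in injured ganglia, against 23.4, 25.4 and 62.0 CPM in uninjured ganglia. The groups did not overlap inside either stratum. Camta1 changed by −1.68 ± 0.25 (adjusted p = 0.00317). Akap11, an anchor for protein kinase A, had −1.47 ± 0.24 (adjusted p = 0.00386), Bmpr2, a receptor for bone morphogenetic proteins, −1.41 ± 0.30 (adjusted p = 0.0112), and Astn1, an adhesion gene of migrating neurons, −1.45 ± 0.32 (adjusted p = 0.0119). Bend4, Atg2b, Jade3, Grid2ip and Gbf1 had main effects of −1.66, −1.63, −1.63, −1.52 and −1.43 at low counts, with at most 8.60 CPM in any library. Of these 5, Grid2ip kept its call in all 12 fits that left out 1 library, and the others in 2 to 8 of the 12. Second intervals of at least 100 bases over Astn1 (−0.18), Bend4 (0.05) and Grid2ip (−0.27) did not pass, nor did those over Cenpm (0.49), Thy1 (−0.45), Slc6a13 (0.35), Sema6a (−0.25) and Kcnab2 (−0.48). Dmxl2, Nisch, Rubcn, Nacc2, Siae and Pik3r4 completed the 12 genes that fell in both strata, with main effects from −1.28 to −0.74. A second interval over Dmxl2, nearer the 3′ end, had −0.17 (adjusted p = 0.27), and one over Rubcn rose (0.62, adjusted p = 0.00694).

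The position of the counted bases along the transcript moved with the injury effect. For each named gene, the mean distance of the counted bases from the 3′ end of its longest transcript was taken. Across 4435 genes the main effect had a Spearman correlation of −0.60 with this distance, −0.46 in unstimulated and −0.44 in stimulated mice, as a description over genes of the same libraries. Genes counted within 500 bases of the 3′ end had a median main effect of 0.40, and 152 of 520 rose while 3 fell. Genes counted 4000 to 6000 bases away had a median of −0.50, and 135 of 493 fell while 11 rose. Beyond 6000 bases, 89 of 302 fell and 3 rose. Genes that rose had a median transcript length of 2730 bases and genes that fell 6039 bases, against 3886 bases for all named genes. The 12 genes that fell in both strata had transcripts of 4276 to 11372 bases, all longer than that median, and the 10 that rose had a median of 2483 bases. GC content moved with the strata in opposite directions, with Spearman correlations of 0.28 without stimulation and −0.35 with it, and 0.04 for the main effect.

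The same pattern held between intervals of the same gene. For 627 genes, 2 tested intervals lay at least 500 bases apart along the transcript. The interval farther from the 3′ end had the lower main effect in 495 of them, with a median difference of −0.31 (−0.43 without and −0.25 with stimulation). Per library, the median log2 ratio of far over near intervals, centred on each gene's mean, was −0.22, −0.24 and −0.13 in injured ganglia, against 0.19, 0.17 and 0.17 in controls. With stimulation it was −0.28, 0.12 and −0.14 in injured ganglia, against 0.07, 0.05 and 0.27 in uninjured ganglia. Unstimulated groups did not overlap, and in stimulated mice injured library 2 lay among the uninjured libraries. The mean difference over both strata was −0.30 (two-sided exact permutation test within strata over 400 arrangements, p = 0.015, where 0.005 is the smallest possible). RNA integrity was given only as a lower limit in the protocol, and its part in these results was not tested. After the trends of GC content, length and distance had been removed in each library, 704 of 10783 intervals rose and 475 fell, and 824 of the original calls were among them. All 10 genes that rose in both strata still passed for the main effect, as did all 11 of the 12 that fell and could be fitted. These genes were chosen for passing in the same libraries, so this is no separate support for them. In the cytoskeletal list 4 of 18 then fell and none rose, and in the sodium and calcium channel list 4 of 22 fell and 1 rose. Of the neuronal adhesion genes 2 of 18 then fell, and of the nociceptor genes 3 of 13. The numbers that then rose were 4 of 12 meningeal, 3 of 11 myelin, 2 of 8 oligodendrocyte and 4 of 12 lipid genes, of which 1 fell. They were 1 of 9 macrophage, 0 of 6 astrocyte and 0 of 10 antigen presentation genes. Of the matrix genes 1 of 25 rose and 1 fell, and of 19 potassium channel, 6 satellite glial and 5 sensory identity genes none passed.

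**Figure D3:**
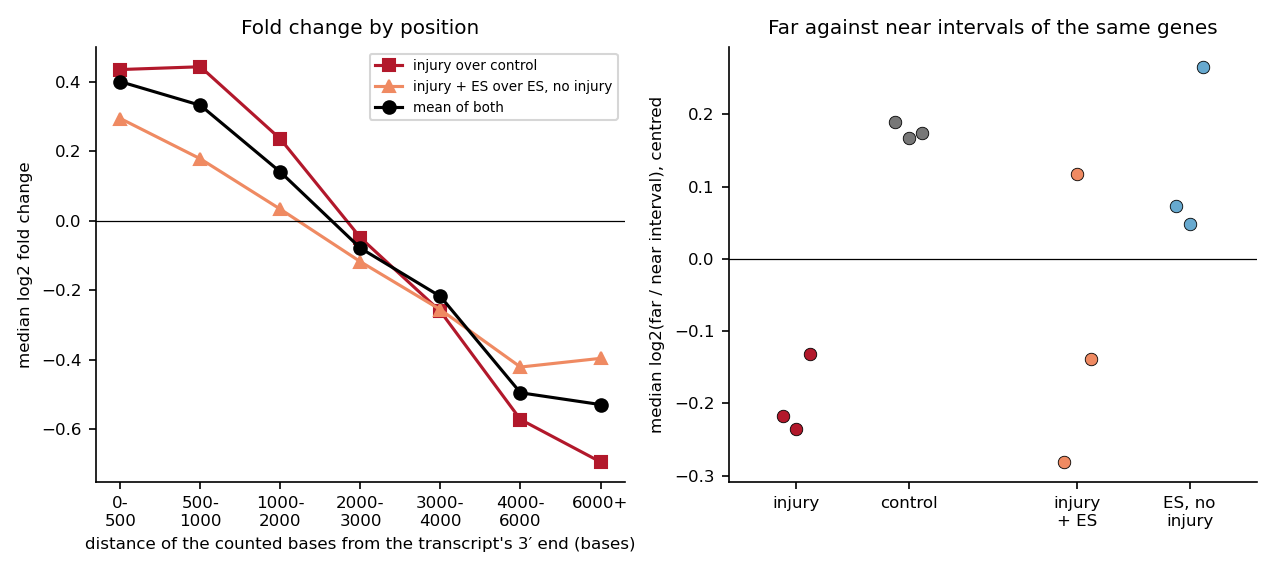
Left, median log2 fold change of named genes by the distance of their counted bases from the transcript's 3′ end, for each stratum and their mean. Right, median log2 ratio of far over near intervals of 627 genes in each library. Medians fall from 0.40 nearest the 3′ end to −0.53 beyond 6000 bases, and the injured libraries lie below 0 except 1.

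More named genes of any kind passed in unstimulated mice (19.5% higher and 12.6% lower) than in stimulated mice (2.98% and 1.95%), and the counts of the next lists stand beside those shares. On the list of myelin and Schwann cell genes 5 of 12 rose, with a median of 0.30. The other 7 did not pass: Prx of myelinating Schwann cells (0.31), Gjc3 (0.28), Adam22 (−0.18), Arhgef10 (−0.50), Sh3tc2 (−0.55), Lgi4 (−0.14) and Drp2 (−0.21). Among all 12, in unstimulated mice 7 rose and 1 fell, in stimulated mice none passed, and 5 had an interaction. Fa2h, the enzyme that makes the hydroxylated lipids of myelin, led them. Fa2h had 344, 320.3 and 311 CPM in injured ganglia, against 87.7, 96.0 and 77.3 CPM in controls. With stimulation, Fa2h had 214, 116 and 141 CPM in injured ganglia, against 168, 145 and 141 CPM in uninjured ganglia. The unstimulated groups were far apart and the stimulated groups overlapped, with a main effect of 0.98 ± 0.13 (adjusted p = 0.00193) and an interaction of −1.85 ± 0.26 (adjusted p = 0.000875). Mag, the myelin-associated glycoprotein gene, had 2.04 in unstimulated mice (adjusted p = 0.000249) and −0.63 in stimulated mice (adjusted p = 0.185). Mag had 371, 236 and 366 CPM in injured ganglia, against 106, 70.4 and 59.5 CPM in controls. With stimulation, Mag had 78.7, 128 and 72.1 CPM in injured ganglia, against 159.8, 170.4 and 101 CPM in uninjured ganglia. Injured, unstimulated ganglia were the highest, and the stimulated groups overlapped. Cnp, a myelin phosphodiesterase gene, and Abca2, a lipid transporter gene, had main effects of 0.73 ± 0.14 (adjusted p = 0.00732) and 0.87 ± 0.14 (adjusted p = 0.00395) and interactions of −1.71 and −1.83. A second interval over Abca2, farther from the 3′ end, had −0.02 (adjusted p = 0.896). Mag passed in 9 of 12 fits that left out 1 library, and Fa2h, Cnp and Abca2 in all 12.

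Oligodendrocytes, the myelinating cells of the brain, reach the ganglion's root but not its nerve branches. Of 8 of their genes, 3 rose for the main effect, all 8 in unstimulated mice and none in stimulated mice, with an interaction at 6. Gjc3 is counted on this list and on the myelin list above. Other genes are on 2 lists as well, among them P2rx3 (channels and nociceptors) and Abca2 (myelin and lipids), so the lists are not separate. Mog, a surface protein of brain myelin, had a main effect of 0.83 ± 0.23 (adjusted p = 0.0236). Mog had 149, 77.2 and 133 CPM in injured ganglia, against 36.5, 25.3 and 24.2 CPM in controls. With stimulation, Mog had 16.4, 40.0 and 19.5 CPM in injured ganglia, against 34.7, 43.7 and 22.7 CPM in uninjured ganglia. The 3 injured, unstimulated libraries were above the 9 others. Gsn, the actin-severing gelsolin, and Aspa, the enzyme that breaks down N-acetylaspartate, had 0.49 ± 0.10 (adjusted p = 0.00915) and 0.60 ± 0.18 (adjusted p = 0.0291). A second, 380-base interval over Aspa gave 0.48 (adjusted p = 0.0116), with 0.12 in unstimulated and 0.85 in stimulated mice. Mog and Aspa passed in 6 and 5 of 12 fits that left out 1 library, and Gsn in all 12. Without the 2 libraries that stood apart, 2 of the 8 oligodendrocyte, 4 of the 12 myelin and 1 of the 6 astrocyte genes rose for the main effect and none fell, and in stimulated mice 1, 1 and 2 of them fell. The 8 genes summed to 1650 to 2230 CPM in injured ganglia against 753 to 1010 CPM in controls. With stimulation the sum was 782 to 1010 CPM in injured against 971 to 1100 CPM in uninjured ganglia. Of 6 astrocyte genes 2 rose for the main effect, 5 in unstimulated mice and none in stimulated mice, and all 6 had an interaction. Agt, the angiotensin precursor of astrocytes, had 2.33 without stimulation and −0.53 with it, and a main effect of 0.90 ± 0.18 (adjusted p = 0.00937). Agt had 104, 74.4 and 98.4 CPM in injured ganglia, against 23.1, 20.1 and 11.9 CPM in controls. With stimulation, Agt had 30.7, 31.0 and 22.0 CPM in injured ganglia, against 33.9, 57.6 and 29.4 CPM in uninjured ganglia. Here too the 3 injured, unstimulated libraries were above the 9 others, and stimulated groups overlapped. The 6 genes summed to 112 to 163 CPM in injured ganglia against 22.6 to 41.8 CPM in controls, and to 33.3 to 50.5 CPM in injured against 46.7 to 144 CPM in uninjured ganglia with stimulation.

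Meningeal and fibroblast genes rose in 9 of 13 cases for the main effect, with a median of 0.71. In unstimulated mice 10 rose and in stimulated mice 1. Leaving out the 2 libraries that stood apart, 6 rose for the main effect. Ptgds, the prostaglandin D synthase of the meninges, was the most abundant. Ptgds had 22254, 21520.5 and 22182 CPM in injured ganglia, against 5103, 5053 and 5523 CPM in controls. With stimulation, Ptgds had 6641, 6664 and 5058 CPM in injured ganglia, against 2563, 7112 and 2685 CPM in uninjured ganglia. Injury changed it by 1.32 ± 0.21 (adjusted p = 0.00386). Slc6a13, a GABA and taurine transporter gene of the meninges, had 0.96 ± 0.12 (adjusted p = 0.000965). Slc6a13 had 125, 124 and 115 CPM in injured ganglia, against 35.8, 41.7 and 32.6 CPM in controls. With stimulation, Slc6a13 had 35.2, 46.2 and 34.0 CPM in injured ganglia, against 29.5, 40.8 and 30.1 CPM in uninjured ganglia. For both, the 3 injured, unstimulated libraries lay above the 9 others, and the stimulated groups overlapped. Dcn, the fibroblast proteoglycan decorin, was the member that rose in stimulated mice (1.08 ± 0.16, adjusted p = 0.00582) and not in unstimulated mice (0.13 ± 0.16, adjusted p = 0.582). Dcn had 2945, 3175 and 3553 CPM in injured ganglia, against 2659, 3557 and 2641 CPM in controls. With stimulation, Dcn had 1853, 1722 and 1944 CPM in injured ganglia, against 873, 802 and 927 CPM in uninjured ganglia. Its low group was the stimulated, uninjured one. A second interval over Dcn gave 0.62 (adjusted p = 0.00692). The 13 genes summed to 28400 to 28800 CPM in injured ganglia against 9720 to 10600 CPM in controls. With stimulation they summed to 8930 to 10700 CPM in injured against 5220 to 9770 CPM in uninjured ganglia. How much root or meninges each ganglion carried was not recorded in the labels, and its part in these results was not tested.

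**Figure D4:**
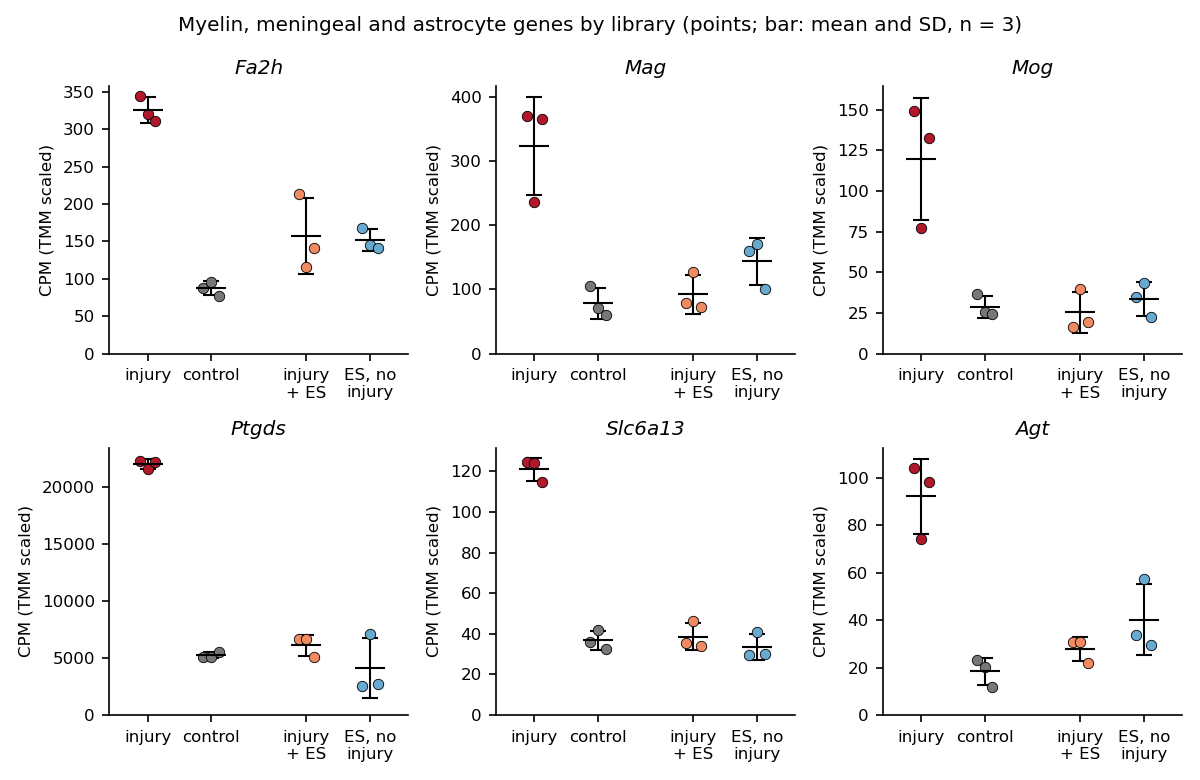
CPM of myelin, meningeal and astrocyte genes by library, with points for the 3 libraries of each group and bars for the mean and SD. The unstimulated injured libraries are the highest in each panel, above 77 CPM for Mog against at most 43.7 CPM in any other library.

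Macrophage, antigen presentation and lipid genes were read in the same way. In stimulated mice 1 lipid gene fell and none of the others on these 3 lists passed. Of 9 macrophage genes 2 rose for the main effect and none fell: C1qc, a complement gene (0.66 ± 0.12, adjusted p = 0.00778), and Ctss, a lysosomal protease gene (0.56 ± 0.14, adjusted p = 0.0167, lost without stimulated, uninjured library 3). C1qc had 46.4, 44.8 and 52.8 CPM in injured ganglia, against 21.9, 21.2 and 20.4 CPM in controls. With stimulation, C1qc had 30.2, 20.6 and 25.0 CPM in injured ganglia, against 22.2, 27.2 and 19.2 CPM in uninjured ganglia. C1qc was separate from controls without stimulation and overlapped with it. In unstimulated mice 3 macrophage genes rose and 1 fell. Of 10 antigen presentation genes 2 rose, Tap2 (0.66 ± 0.16, adjusted p = 0.0166) and H2-DMa (0.43 ± 0.12, adjusted p = 0.0268), with an interaction at 6 of the 10. Of 12 cholesterol and lipid genes 5 rose and 1 fell. Plin3, a lipid droplet coat gene, had 0.58 ± 0.11 (adjusted p = 0.00785) with an interaction of −1.64. Acaca and Elovl6, enzymes of fatty acid synthesis, had 0.64 ± 0.13 (adjusted p = 0.00937) and 0.57 ± 0.13 (adjusted p = 0.012), and Pltp, the phospholipid transfer protein gene, 0.71 ± 0.17 (adjusted p = 0.0164). Tap2, H2-DMa, Elovl6 and Pltp passed in 10, 4, 10 and 10 of 12 fits that left out 1 library. Leaving out those 2 libraries, 4 antigen presentation genes rose and 7 lipid genes rose and 2 fell, and 2 macrophage genes rose.

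Nuclear genes of the respiratory chain rose in 7 of 16 cases and fell in none, with a median of 0.41. In unstimulated mice 6 rose and in stimulated mice 4. With both libraries that stood apart left out, 9 rose for the main effect, 8 rose and 1 fell in unstimulated mice, and 4 rose in stimulated mice. Ndufb4 and Ndufa4, subunits of complex I and of cytochrome oxidase, had 0.60 ± 0.14 (adjusted p = 0.0136) and 0.53 ± 0.13 (adjusted p = 0.017). Ndufb4 had 439.9, 494 and 519 CPM in injured ganglia, against 348, 317 and 434 CPM in controls. With stimulation, Ndufb4 had 539, 309 and 448 CPM in injured ganglia, against 291, 253 and 205 CPM in uninjured ganglia. The unstimulated groups did not overlap, and the stimulated groups did not overlap either. Both calls were lost without injured, stimulated library 3 or stimulated, uninjured library 3. Ribosomal protein genes rose in 3 of 6 cases, among them Rpl26 (0.56 ± 0.13, adjusted p = 0.0127) and Rps26 (0.51 ± 0.14, adjusted p = 0.021), and in 3 of 6 with those 2 libraries left out. Both lists are of short transcripts, with medians of 1553 and 1143 bases, and after the removal of the position trend 2 of 16 and 1 of 5 rose.

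Genes that mark the response of sensory neurons to nerve damage did not rise as a list. Of 7 axon injury genes tested, none rose for the main effect and 1 fell. That 1 was Stat3, a transcription factor of cytokine signalling (−0.61 ± 0.17, adjusted p = 0.0234), which passed in 8 of 12 fits that left out 1 library. Stat3 had 23.5, 35.3 and 33.5 CPM in injured ganglia, against 38.2, 42.0 and 28.1 CPM in controls. With stimulation, Stat3 had 23.8, 40.9 and 35.2 CPM in injured ganglia, against 58.1, 50.8 and 88.8 CPM in uninjured ganglia. The stimulated groups did not overlap and the unstimulated ones did. Bdnf, a neurotrophin, had −0.35 ± 0.18 (adjusted p = 0.186) and Cd9, a membrane protein, 0.30 ± 0.14 (adjusted p = 0.132). In unstimulated mice Bdnf fell (−0.75, adjusted p = 0.0369). Cacna2d1, Sez6l, Ecel1 and Fst had low counts, with means of 1.62, 2.37, 1.16 and 1.04 CPM. Cacna2d1 had 0.89 (adjusted p = 0.129), and a second interval over it fell (−1.30, adjusted p = 0.0201). Atf3, Sprr1a and Gal were not analysed here. Of 5 genes of sensory neuron identity, 2 rose, Uchl1 (0.61 ± 0.17, adjusted p = 0.0234) and Thy1 (0.53 ± 0.16, adjusted p = 0.0302), which passed in 6 and 2 of 12 such fits. Nefm, the medium neurofilament, had −0.24 ± 0.12 (adjusted p = 0.154). In stimulated mice Nefm fell (−0.70 ± 0.17, adjusted p = 0.0279). Of 7 satellite glial genes 1 fell for the main effect, the neuregulin receptor Erbb3 (−1.15 ± 0.31, adjusted p = 0.0206, in 9 of 12 such fits), and none rose. In unstimulated mice 2 rose, Kcnj10, their potassium channel (1.64), and Ngfr (0.57), and 3 fell, Cdh19 (−1.12), Ptprz1 (−0.48) and Ednrb (−0.39). In stimulated mice Ednrb rose (0.64) and none fell, and 4 of the 7 had an interaction.

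Potassium channel genes passed in 3 of 22 cases for the main effect, with 1 higher and 2 lower and a median of 0.03. Kcnab2, an auxiliary subunit, had 0.44 ± 0.14 (adjusted p = 0.0365) and the sodium-activated Kcnt1 had −0.79 ± 0.23 (adjusted p = 0.0272). They passed in 1 and 6 of 12 fits that left out 1 library. Of the calcium-activated KCNN channels named in the series title, Kcnn4 had 0.49 ± 0.22 (adjusted p = 0.123). Kcnn4 had 7.65, 7.86 and 6.39 CPM in injured ganglia, against 3.88, 4.66 and 4.22 CPM in controls. With stimulation, Kcnn4 had 13.8, 5.79 and 10.3 CPM in injured ganglia, against 10.8, 9.15 and 6.05 CPM in uninjured ganglia. The unstimulated groups did not overlap and the stimulated groups did. Kcnn3 had −0.43 ± 0.67 (adjusted p = 0.676) at no more than 2.39 CPM in any library, and Kcnn1 and Kcnn2 were not analysed here.

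Matrix genes passed in 7 of 26 cases, with 3 higher and 4 lower. Adamts2, a procollagen protease gene, had 0.90 ± 0.15 (adjusted p = 0.00442), Fbln2 of elastic matrix −0.74 ± 0.15 (adjusted p = 0.00937), Sparc 0.56 ± 0.17 (adjusted p = 0.0331) and Col4a1 of basement membrane 0.51 ± 0.16 (adjusted p = 0.0331). Sparc and Col4a1 passed in 3 and 4 of 12 fits that left out 1 library. Leaving out the 2 libraries that stood apart, 5 matrix genes rose and 8 fell, and 2 satellite glial genes, 3 potassium channel genes and 1 axon injury gene fell while 0, 1 and 1 rose. Of all 13612 intervals in that fit, 2145 rose and 1823 fell. Among the lists not described above, 0 of 10 skeletal muscle genes, 0 of 5 mitochondrially encoded genes, 0 of 6 proliferation genes, 0 of 5 circadian genes, 0 of 4 stress genes and 0 of 3 bone genes passed for the main effect by edgeR. At an unadjusted p under 0.05 there were 0, 0, 0, 3, 1 and 0 of them in the same order, DESeq2 called 0, 0, 0, 2, 0 and 0, and limma-voom called 0, 1, 1, 2, 1 and 1. Higher and lower counts were 2 and 0 of 3 for lymphocytes and granulocytes, 0 and 1 of 12 for blood vessels, 0 and 2 of 10 for brain neurons and 1 and 1 of 10 for touch neurons. They were 0 and 1 of 9 for neuropeptides, 1 and 2 of 10 for neurotrophic genes and 1 and 4 of 15 for vesicle release. For splicing and for the proteasome they were 1 and 3 of 20 and 3 and 2 of 12.

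**Figure D5:**
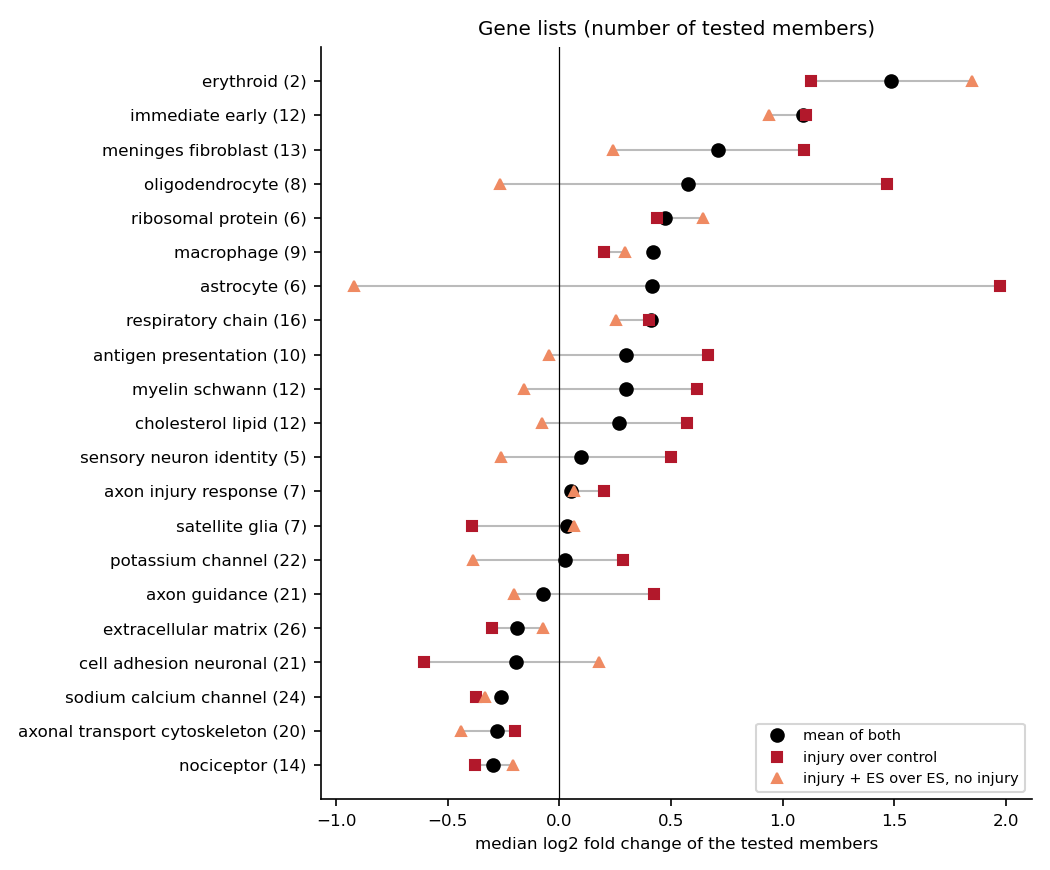
Median log2 fold change of the tested members of each described list, with the number tested in brackets, for each stratum and their mean. Immediate early and erythroid genes are positive in both strata, oligodendrocyte and astrocyte genes are positive without stimulation and negative with it, and nociceptor, sodium and calcium channel and cytoskeletal genes are negative in both.

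Genes that passed in both strata with opposite directions were 16 that rose without and fell with stimulation and 21 the other way round. The first group had a median GC content of 57.3% under the counted interval and the second 39.9%, against 49.1% for all named genes. Hcn2, a pacemaker channel gene, had 1.11 without stimulation and −0.93 with it. Hk1, the hexokinase that starts glucose use in neurons, had 0.60 and −0.61. In the other direction Tfrc, the transferrin receptor gene, had −0.83 and 0.88, Gpm6a, a neuronal membrane glycoprotein gene, had −0.81 and 0.78, and Trpc6, a cation channel gene, had −0.87 and 0.74.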

How the data were processed

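The deposited files hold read counts per gene interval, made with featureCounts 2.0.6 on paired 150 bp reads in Ensembl 110 intervals without using strand, per the file headers and the labels' protocols. The submitters' processing notes also name FastQC, Salmon 1.10.2 and DESeq2. Intervals were named from GENCODE M21 exons on GRCm38 (1 gene, at least 100 exonic bases, 9968 genes), and 98.63 to 99.3% of nuclear counts lay over such exons. edgeR 4.0.16 (TMM, filterByExpr, robust quasi-likelihood) was fitted to the means of the 4 groups, in R 4.3.3, and the main effect averaged both strata. Alternatives used DESeq2 1.42.0 and limma 3.58.1. Scripts were tested on simulated data. Libraries are separate by label only, so p-values measure the spread between libraries, which may be technical. None of the 12 pairs of libraries inside a group agreed within sampling noise. Named genes were the 12 highest and 12 lowest that passed, with a mean of at least 1 CPM and no overlap in the same direction inside each stratum, up to 4 tested members of smallest p of each of 21 described lists of 37, the 4 largest interactions among genes that passed both tests, and KCNN genes. Genes that passed in both strata in either direction, Nr4a1 and further list members were named after their values were seen, and some genes and 1 list are not reported here. Members and lists were chosen with earlier results of these data known.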

Additional observations from a re-analysis of the deposited data

Results flagged for a closer look

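Among the 109 genes chosen by the naming rules, 33 differed in their injury effect between stimulated and unstimulated mice by edgeR's test of the interaction itself. The values in brackets are the injury effect with stimulation minus that without it, on the log2 scale. Genes of myelin and oligodendrocytes were Fa2h (−1.85), Abca2 (−1.83), Cnp (−1.71), Mag (−2.67), Mog (−2.46) and Gsn (−1.24). Genes of astrocytes and satellite glia were Agt (−2.85), Slc14a1 (−2.44), Aldh1l1 (−1.89), Slc7a10 (−5.87) and Kcnj10 (−2.22). Slc7a10, an amino acid transporter gene, had 0.634, 1.29 and 0.473 CPM in injured, stimulated ganglia against 2.20, 36.6 and 2.39 CPM in stimulated, uninjured ganglia, where 1 library stood far above the others. Genes of meninges, fibroblasts and matrix were Ptgds (−1.50), Slc6a13 (−1.52), Bgn (−1.04), Sparc (−1.08), Adamts2 (−1.18) and Dcn (0.96). Genes of immune cells were C1qc (−1.03), Tap2 (−1.42), H2-DMa (−0.92), Erap1 (2.45) and Mmp8 (3.44). Mmp8, a collagenase gene of neutrophils, had 3.93, 2.79 and 3.07 CPM in injured, stimulated ganglia against 0.696, 0.221 and 0.239 CPM in stimulated, uninjured ganglia, and 1.22, 4.46 and 0.694 CPM in injured ganglia against 2.44, 2.84 and 3.05 CPM in controls. Genes of lipid handling were Plin3 (−1.64), Acaca (−1.05) and Pltp (−2.80). Neuronal and guidance genes were Unc5b (−3.19), Sema6a (−1.38), Chl1 (0.62), Cntn1 (1.57), Nlgn2 (−0.82), Elavl3 (−0.80), Nefm (−0.91) and Kcnab2 (−0.88). Positive values were found for 5 of these 33, Mmp8, Erap1, Cntn1, Dcn and Chl1. Genes described above outside those rules that also passed the interaction test were Arc (−2.28), Map4 (−1.26), Negr1 (2.53), Cdh19 (1.85), Ngfr (−1.08), Ednrb (1.03), Hcn2 (−2.04), Hk1 (−1.21), Tfrc (1.72), Gpm6a (1.59) and Trpc6 (1.61), and none of the 7 immediate early genes that rose for the main effect did.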

How the results depend on the processing

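Leaving out each library in turn gave 522 to 4796 intervals for the main effect in place of 2694, 2465 to 4847 in place of 4046 without stimulation, 74 to 1804 in place of 531 with stimulation and 1126 to 3407 in place of 2507 for the interaction. The lowest main-effect counts came without stimulated, uninjured library 3 (522) and injured, stimulated library 3 (650), and the highest without injured, stimulated library 2 (4796). For the main effect, limma-voom with quality weights called 4860, an additive model 273 and injury alone in the model 24. With stimulation, DESeq2 called 1072, limma-voom 2004, the GC and length correction 266 and a fit of only its 6 libraries 0. For the interaction limma-voom called 4411 and the GC and length correction 1360. The correction for GC, length and position, added after the data were seen, gave 1179 for the main effect, 2499 without stimulation, 288 with it and 1383 for the interaction. Leaving out both libraries that stood apart, also added later, gave 3968 for the main effect, 5279 without stimulation and 1149 with stimulation. Replicate numbers were not taken to pair the libraries. Same-numbered libraries correlated at −0.26 to 0.20 and not every one best with its own number, which cannot show whether they were handled together. With the replicate block, 1913 intervals passed for the main effect, 294 with stimulation and 1915 for the interaction. With the block and the GC and length correction, 1668, 132 and 977 passed in the same order. Of 109 genes named, signs of the main effect reversed only for Elavl3 (−0.0665 with limma-voom, −0.018 without the 2 libraries), Kcnn3 (0.01 with the position correction), Ptprz1 (0.0618 with the GC and length correction, 0.062 with the block too, 0.13 with the position correction) and Slc7a10 (0.14 without stimulated, uninjured library 2, against −1.69 without the 2 libraries). None of these 4 had passed for the main effect. Of the 87 that passed, 49 kept the call in all 12 fits that left out 1 library, and 36 were lost without stimulated, uninjured library 3, 32 without injured, stimulated library 3 and 35 with the position correction. The cause of these shifts was not tested. Counts of reads in intervals of another assembly left most genes unmeasured, and genes at a few CPM can show only large changes.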
